A study of Mus musculus with 5 samples.

Results

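The 41 genes described here make, spend and recycle glutathione or belong to the antioxidant systems beside it. They were taken by gene name, from a list written with earlier results of these data known. All 41 of 41 were found among the 24319 genes with a usable name in the deposited table. RNA sequencing had been run on 5 libraries of mouse mammary luminal cells, the inner layer of epithelium in ducts and alveoli, sorted as live CD24Hi CD29Lo cells. The labels give wild type for 3 libraries (WT 1, WT 2 and WT 3) and *Brca1* knockout for 2 (KO 4 and KO 5), all from the mammary tissue of mice of a mixed strain. The study's own description takes every luminal library as BRCA1-deficient, so levels are given both by label and over all 5 libraries. According to the methods, *Brca1* was removed with MMTV-Cre, a recombinase driven by a viral promoter that is active mainly in mammary epithelium, acting on floxed alleles (*Brca1* fl/fl). A cell in which Cre was not active keeps the gene. The methods name virgin and pregnant females 3 to 4 months old for the preparation of cells and do not say which stage each bulk library came from. Nothing says that the libraries of a label came from separate animals, so the p-values below measure only the spread between these samples, which may be technical.

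Glutathione is a small peptide with a free thiol that cells hold at high concentration, and its oxidised form is reduced again at the expense of NADPH. Glutathione peroxidases use it to remove hydrogen peroxide and lipid peroxides, glutathione transferases couple it to reactive compounds, and peroxiredoxins with thioredoxin run a parallel system. The transcription factor Nrf2, encoded by *Nfe2l2*, is held back by Keap1 until oxidants or electrophiles modify Keap1, after which it binds antioxidant response elements near many of these genes. In the mammary gland these systems serve an epithelium that grows and makes milk in pregnancy and lactation.

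Values are FPKM, fragments counted per length of transcript and per size of library, so that levels of different genes can be set beside each other. Tests and differences use log2(FPKM + 1). Between 10979 and 11336 genes reached 1 FPKM in each library. The number of fragments behind each library is unknown, since the table holds no counts. *Brca1* itself did not separate the labels, at 1.30, 1.32 and 0.234 FPKM in WT 1, WT 2 and WT 3 and at 1.20 and 1.34 FPKM in KO 4 and KO 5. A value over the whole gene need not show the loss of a part of it, so the labels are used as they stand. A wild type or knockout library is throughout a library labelled so.

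The luminal identity of the cells was clear in all 5 libraries, with 7 of 7 luminal keratin and adhesion markers above 1 FPKM in each. Beyond that, a pair of libraries stood apart. In WT 3 the 9 markers of mature, hormone-sensing luminal cells summed to 667 FPKM against 27.9 to 52.6 FPKM in the other libraries, and all 9 were highest there. In the same library all 10 proliferation genes were lowest, with a sum of 4.96 FPKM against 89.3 to 189 FPKM, and 7 milk genes summed to 28541 FPKM against 68704 to 91288 FPKM. In WT 2 the 8 macrophage markers summed to 217 FPKM against 3.64 to 25.4 FPKM in the others, and all 8 were highest there. The 8 leukocyte markers were likewise highest in WT 2 in sum, and the 8 fibroblast markers summed to 112 and 88.9 FPKM in WT 2 and WT 3 against 3.45 to 12.9 FPKM in the others. *C1qb*, a complement gene that defines macrophages, was listed at 0 in WT 1 and KO 4. Differences between the labels that rest on WT 2 or WT 3 are therefore given with and without these libraries. The counts of members by direction and of labels that do not overlap are given over all 5 libraries only. In bulk samples, fewer cells of a type and less RNA per cell cannot be told apart.

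As a set, the antioxidant genes were highly expressed. The median member lay at 4.76 ± 0.16 (SD, n = 5 libraries) on the log2 scale, between the 87.9 and 91.1 percentiles of all genes in a library. Between 37 and 38 of the 41 genes reached 1 FPKM and 7 to 10 reached 100 FPKM. Together they summed to 2848 FPKM in KO 5 and to 3949 FPKM in WT 3, the ends of the range. *Gpx3* alone made up 40.0% of the sum in WT 3, against at most 1.27% in the other libraries. The place of WT 3 at the top of the range thus rests on that gene. Their stability between libraries was ordinary, with a median SD of 0.30 on the log2 scale against 0.30 over the 11481 genes whose mean reached 1 FPKM. The plot of levels by role shows tight rows for *Txn1*, *Sod2* and *Gss* and long rows for *Gpx3*, *Nqo1*, *Hmox1* and *Slc7a11*.

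**Figure D1:**
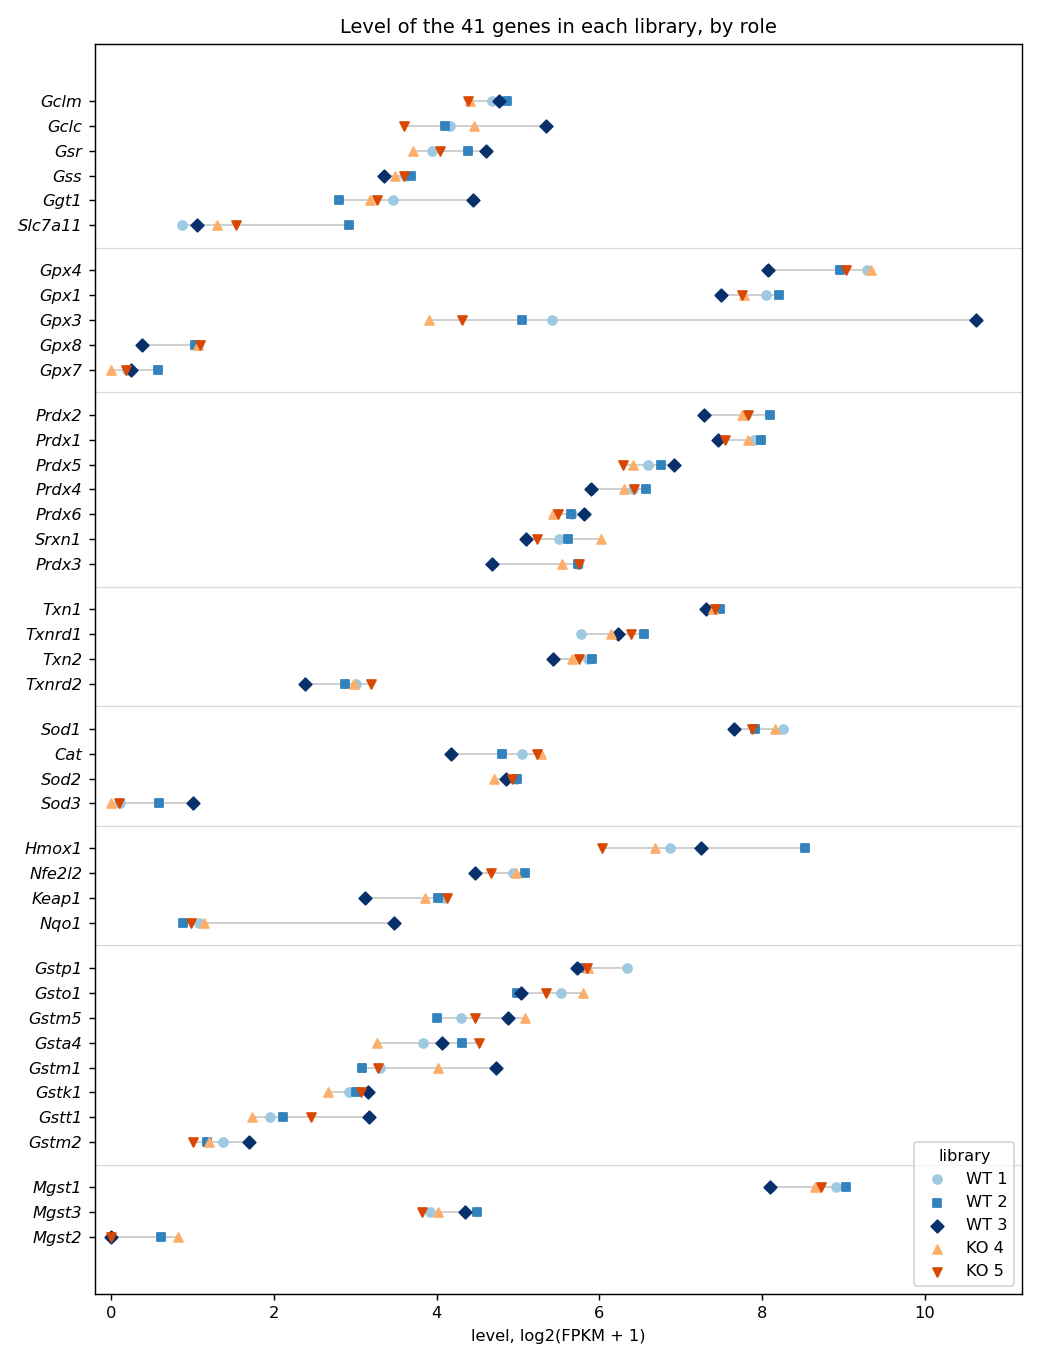
Level of each of the 41 genes on the log2(FPKM + 1) scale, 1 point per library (circle WT 1, square WT 2, diamond WT 3, upward triangle KO 4, downward triangle KO 5), grouped by role and sorted by mean level within a role, with a grey line from the lowest to the highest library. *Gpx3* in WT 3 (1579 FPKM) lies farthest to the right, while *Gpx7*, *Mgst2* and *Sod3* stay near 0 in most libraries.

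In the Nrf2 axis the regulators spanned 0.62 (*Nfe2l2*) and 1.00 (*Keap1*) between the lowest and highest library on the log2 scale. The target genes placed in this group, *Hmox1* and *Nqo1*, spanned 2.49 and 2.59, with their highest values in WT 2 and WT 3. Those spans do not describe other members near which Nrf2 may bind. *Nfe2l2* (chr2:75675513-75704641, minus strand) stood at 29.5, 33.0 and 21.2 FPKM in WT 1, WT 2 and WT 3 and at 30.5 and 24.4 FPKM in KO 4 and KO 5. *Keap1*, the adaptor that marks Nrf2 for degradation, stood at 16.0, 15.2 and 7.69 FPKM in the wild type libraries and at 13.5 and 16.4 FPKM in the knockout libraries. The lowest value of both genes came from WT 3, and *Keap1* there was lower than the next library by a factor of 1.75. The ratio of *Nfe2l2* to *Keap1* accordingly ranged from 1.49 in KO 5 to 2.75 in WT 3. Of the exon bases of *Keap1*, 10.9% overlap another annotated gene.

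*Nqo1* (chr8:107388225-107403206, minus strand), a quinone reductase and a classic Nrf2 target, was low in all libraries but 1. It stood at 1.11, 0.847 and 10.1 FPKM in WT 1, WT 2 and WT 3 and at 1.21 and 0.972 FPKM in KO 4 and KO 5. WT 3 was 8.34 times the next library, and without it the labels overlapped within 0.847 to 1.21 FPKM. *Hmox1* (chr8:75093621-75100589, plus strand), which breaks down heme and is also induced by Nrf2, had another high library. Its values were 116, 368 and 152 FPKM in WT 1, WT 2 and WT 3 and 101 and 64.5 FPKM in KO 4 and KO 5. WT 2 was 2.43 times the next library, and both knockout libraries lay below all 3 wild type libraries.

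The Nrf2 recognition letters were then looked for in front of the genes. Of the 41 members, 35 had at least 1 promoter window in the RefSeq table (GRCm38.p6, 250 bases before to 50 bases after a start), with 45 windows in all. The antioxidant response element core TGACNNNGC, searched on both strands with no other motif, was present in 9 of these 35 genes (25.7%), against 14% of the 27025 genes in the table. The 9 genes were *Gclm*, *Ggt1*, *Prdx1*, *Txnrd1*, *Sod1*, *Nfe2l2*, *Srxn1*, *Gstm5* and *Mgst1*. Such a match is a description of the letters in this window and not a binding site, and *Hmox1* had no entry. Shown here are 3 members with the core, 1 from each of glutathione synthesis, the peroxiredoxins and the thioredoxin reductases, followed by the pair whose levels stood out most in WT 3. Each run is the longest stretch of the 250 bases before the start that overlaps no GENCODE M21 exon, written 5′ to 3′ on the gene's strand, with the core (TGACNNNGC or its reverse complement GCNNNGTCA) in capitals. They lie at chr3:122245307-122245556 (plus strand) for *Gclm*, chr4:116685349-116685543 (plus) for *Prdx1*, chr10:82859009-82859178 (plus) for *Txnrd1*, chr11:54902604-54902771 (plus) for *Gpx3* and chr8:107403207-107403455 (minus) for *Nqo1*.
Gclm: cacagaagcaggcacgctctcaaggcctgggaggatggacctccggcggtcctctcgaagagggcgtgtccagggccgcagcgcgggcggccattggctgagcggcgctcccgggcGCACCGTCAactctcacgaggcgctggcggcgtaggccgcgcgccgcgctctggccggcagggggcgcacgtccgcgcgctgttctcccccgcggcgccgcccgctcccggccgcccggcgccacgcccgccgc
Prdx1: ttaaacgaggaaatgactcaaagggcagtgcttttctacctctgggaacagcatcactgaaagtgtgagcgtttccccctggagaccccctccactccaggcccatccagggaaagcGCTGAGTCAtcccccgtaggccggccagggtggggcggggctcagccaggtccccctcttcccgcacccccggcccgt
Txnrd1: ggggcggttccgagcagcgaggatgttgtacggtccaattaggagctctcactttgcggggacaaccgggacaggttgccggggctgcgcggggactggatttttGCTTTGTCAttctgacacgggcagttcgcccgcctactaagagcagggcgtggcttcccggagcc
Gpx3: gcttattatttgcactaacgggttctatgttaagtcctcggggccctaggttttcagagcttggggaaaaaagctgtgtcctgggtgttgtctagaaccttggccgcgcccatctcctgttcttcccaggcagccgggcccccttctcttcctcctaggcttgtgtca
Nqo1: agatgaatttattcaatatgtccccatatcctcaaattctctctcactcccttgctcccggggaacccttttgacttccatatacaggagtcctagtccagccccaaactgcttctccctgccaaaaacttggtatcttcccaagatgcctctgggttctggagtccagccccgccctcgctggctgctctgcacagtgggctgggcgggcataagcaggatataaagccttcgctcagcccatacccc
In *Gclm* the core began 134 bases before the RefSeq start of the window shown, in *Prdx1* 133 bases and in *Txnrd1* 92 bases. Further *Txnrd1* windows, ending at chr10:82833950 and chr10:82860300, held no core before the start. The windows of *Gpx3* and *Nqo1*, the genes that stood highest in WT 3 relative to the others, held no core, which says only that these letters are not within this window.

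Glutathione synthesis starts with glutamate-cysteine ligase, made of the catalytic subunit *Gclc* and the modifier subunit *Gclm*. *Gclc* (chr9:77754535-77794485, plus strand) stood at 16.9, 16.2 and 39.5 FPKM in WT 1, WT 2 and WT 3 and at 21.0 and 11.1 FPKM in KO 4 and KO 5. *Gclm* (chr3:122245557-122270732, plus strand) stood at 24.7, 28.1 and 26.1 FPKM in the wild type libraries and at 20.2 and 20.0 FPKM in the knockout libraries. The subunits thus behaved differently: *Gclc* was high in 1 library, while *Gclm* was even and lower in both knockout libraries than in any wild type library. The ratio of *Gclc* to *Gclm* was 1.51 in WT 3, 1.04 in KO 4 and between 0.555 and 0.686 in the other libraries. For *Gclm*, 4.71% of exon bases overlap other annotated genes.

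The other genes of this group followed separate courses. *Slc7a11* (chr3:49892526-50443614, minus strand), the transporter that imports cystine for glutathione synthesis, stood at 0.825, 6.58 and 1.08 FPKM in WT 1, WT 2 and WT 3 and at 1.46 and 1.90 FPKM in KO 4 and KO 5. It was high in WT 2, the library with the most *Hmox1*, by a factor of 3.46 over the next library. *Ggt1*, which breaks down glutathione outside the cell, ranged from 5.93 FPKM in WT 2 to 20.8 FPKM in WT 3. *Gsr*, the reductase that restores glutathione, ranged from 12.0 FPKM in KO 4 to 23.4 FPKM in WT 3. *Gss*, which completes glutathione synthesis, held between 9.23 and 11.9 FPKM.

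Among the glutathione peroxidases the order of levels depended on the library. *Gpx4*, which reduces lipid peroxides in membranes, had the highest mean of the group and stood at 624, 497 and 268 FPKM in WT 1, WT 2 and WT 3 and at 647 and 521 FPKM in KO 4 and KO 5. *Gpx1*, the main cytosolic enzyme, followed with 263, 295 and 179 FPKM in the wild type libraries and 218 and 215 FPKM in the knockout libraries. The ranges of the pair did not overlap outside WT 3, the library with the lowest value of each. A part of the *Gpx4* value is uncertain, since 48.4% of the 100-base words of its longest coding transcript also occur in transcripts of other genes, the first of them the pseudogene *Gpx4-ps2*.

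*Gpx3* (chr11:54902453-54910377, plus strand), the secreted peroxidase known from plasma, was the member with the widest range. It stood at 41.6, 32.2 and 1579 FPKM in WT 1, WT 2 and WT 3 and at 14.0 and 18.9 FPKM in KO 4 and KO 5. WT 3 was 37.9 times the next library, and the knockout libraries lay below all wild type libraries whether or not WT 3 was counted. In WT 3 *Gpx3* made up 77.9% of the summed FPKM of the 5 peroxidases and 40.0% of that of all 41 members, against 1.59% to 4.48% and 0.454% to 1.27% in the other libraries. Ranked by the log2 gap between WT 3 and the next library, it was number 6 of 10583 protein-coding genes, with *Nqo1* at 114 and *Gclc* at 463. The 9 mature luminal markers that were all highest in WT 3 moved with it. So did 7 luminal markers, with a sum of 11260 FPKM there against at most 7746 FPKM elsewhere. The 8 fibroblast markers stood at 88.9 FPKM in WT 3 and 112 FPKM in WT 2, against at most 12.9 FPKM elsewhere. Endothelial and adipocyte sums were also highest in WT 3, and basal, proliferation and milk sums were lowest there. The part of these lists in the level of *Gpx3* was not tested. *Gpx7* and *Gpx8*, peroxidases of the endoplasmic reticulum, were the lowest of the group. *Gpx7* stood at 0.148, 0.492 and 0.181 FPKM in WT 1, WT 2 and WT 3, at 0.129 FPKM in KO 5 and was listed at 0 in KO 4. *Gpx8* stood at 1.10, 1.04 and 0.299 FPKM in the wild type libraries and at 1.10 and 1.12 FPKM in the knockout libraries, with WT 3 alone low.

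The peroxiredoxins, which remove peroxide with a reactive cysteine and are reduced by thioredoxin, were among the most abundant members. *Prdx2* stood at 223, 273 and 156 FPKM in WT 1, WT 2 and WT 3 and at 214 and 226 FPKM in KO 4 and KO 5. Of its exon bases, 11.5% overlap *Junb* or *Rnaseh2a*. *Prdx1* stood at 237, 254 and 175 FPKM in the wild type libraries and at 226 and 185 FPKM in the knockout libraries. These cytosolic enzymes overlapped in range and were lowest in WT 3, as were *Prdx4* of the endoplasmic reticulum (58.7 to 94.3 FPKM) and the mitochondrial *Prdx3*. *Prdx3* stood apart most clearly, with 24.7 FPKM in WT 3 against 52.1 and 52.4 FPKM in WT 1 and WT 2 and 45.4 and 52.9 FPKM in KO 4 and KO 5.

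*Prdx5* and *Prdx6* showed the opposite order, highest in WT 3 and lowest in the knockout libraries. *Prdx5*, which serves mitochondria, peroxisomes and cytosol, stood at 95.8, 107 and 120.1 FPKM in WT 1, WT 2 and WT 3 and at 84.3 and 77.4 FPKM in KO 4 and KO 5. *Prdx6*, which is reduced by glutathione rather than thioredoxin, stood at 49.5, 49.2 and 55.1 FPKM in the wild type libraries and at 42.0 and 43.9 FPKM in the knockout libraries. For both genes the labels did not overlap, by a narrow margin. Of the exon bases of *Prdx5*, 19.1% are also those of *Trmt112*, and reads from the pair cannot be told apart there. *Srxn1*, which repairs overoxidised peroxiredoxins, ranged from 33.3 FPKM in WT 3 to 63.9 FPKM in KO 4.

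The thioredoxin system had the smallest SD of a group's median level, 0.18 on the log2 scale against 0.22 to 1.39 for the other groups. *Txn1*, the cytosolic thioredoxin, stood at 166, 178 and 158 FPKM in WT 1, WT 2 and WT 3 and at 167 and 171 FPKM in KO 4 and KO 5, the smallest SD among the members whose mean reached 1 FPKM (0.061 on the log2 scale). *Txnrd1*, the selenoprotein that reduces it, ranged from 53.6 FPKM in WT 1 to 92.8 FPKM in WT 2. The mitochondrial pair was lower, *Txn2* at 42.2 to 59.0 FPKM and *Txnrd2* at 4.21 to 8.13 FPKM, with WT 3 lowest in both.

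Superoxide dismutases turn superoxide into peroxide, which catalase then splits. *Sod1*, the cytosolic enzyme, stood at 305, 240.0 and 201 FPKM in WT 1, WT 2 and WT 3 and at 286 and 233 FPKM in KO 4 and KO 5. It was 7.19 to 11.4 times *Sod2*, the mitochondrial enzyme, which held between 25.0 and 30.7 FPKM. *Cat* (chr2:103453849-103485160, minus strand), catalase, stood at 32.0, 26.8 and 17.1 FPKM in the wild type libraries and at 38.0 and 36.6 FPKM in the knockout libraries. Both knockout libraries were above all wild type libraries, and the lowest value was again that of WT 3. *Sod3*, the extracellular enzyme, stood at 0.0813, 0.506 and 1.01 FPKM in WT 1, WT 2 and WT 3, at 0.0714 FPKM in KO 5 and was listed at 0 in KO 4.

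Of the glutathione transferases, the membrane-bound *Mgst1* was by far the most abundant. It stood at 480.4, 524 and 274 FPKM in WT 1, WT 2 and WT 3 and at 401 and 421 FPKM in KO 4 and KO 5, which is 6.93% of the summed member FPKM in WT 3 and at most 14.9% in the others. *Gstp1*, the pi class enzyme and the most abundant soluble transferase by mean level, stood at 80.1, 53.4 and 51.7 FPKM in the wild type libraries and at 57.1 and 56.6 FPKM in the knockout libraries. WT 1 alone was high. The *Gstp1* value is uncertain, since 52.8% of its 100-base words occur in other transcripts, *Gstp2* first. For *Gstm1*, *Sod1*, *Prdx2*, *Prdx1* and *Gstm2* this share was between 0.6% and 7.7%.

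Several lower transferases were highest in WT 3, in contrast to *Mgst1* and *Gstp1*. *Gstm1*, of the mu class, stood at 8.90, 7.45 and 25.6 FPKM in WT 1, WT 2 and WT 3 and at 15.2 and 8.66 FPKM in KO 4 and KO 5. *Gstt1* (2.31 to 7.98 FPKM), *Gstm2* (1.00 to 2.24 FPKM) and *Gstk1* (5.31 to 7.88 FPKM) also peaked in WT 3. The remaining 3 soluble enzymes had their highest value in a knockout library, *Gsto1* (30.8 to 54.4 FPKM) and *Gstm5* (15.1 to 32.9 FPKM) in KO 4 and *Gsta4* (8.66 to 22.0 FPKM) in KO 5. *Mgst3* held between 13.2 and 21.6 FPKM, and *Mgst2* was listed at 0 in 3 libraries and reached 0.770 FPKM at most.

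The contrast that the labels allow, *Brca1* knockout against wild type, was tested with limma across the 11481 genes whose mean reached 1 FPKM. Of the 41 members, 37 passed this minimum, while *Gpx7*, *Gpx8*, *Mgst2* and *Sod3* did not. No member was called at an adjusted p under 0.05 (0 of 37), and neither was any gene (0%). At an unadjusted p under 0.05, 0 of 37 members passed, against 372 of all genes (3.24%). The smallest adjusted p of a member in limma was 0.924, and with estimated library weights it was 0.113. The weights were 0.505, 5.59 and 0.148 in WT 1, WT 2 and WT 3 and 1.55 in each knockout library. The wild type mean of that fit thus rests mostly on WT 2. The unadjusted count depended on the fit: with library weights it was 10 of 37 members and 2799 of 11481 genes, and without WT 1 it was 3 of 37 members and 887 of 11528 genes.

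None of the estimates passed the test, and they are described here by their direction. Of the 37 members, 23 (62.2%) had a lower mean in the knockout libraries, against 34.5% of all genes tested. Their median difference, knockout minus wild type, was -0.09 on the log2 scale (quartiles -0.32 and 0.08), against 0.11 for all genes. Under median-of-ratios scaling the values were -0.20 and 0.01, and without both WT 2 and WT 3 they were -0.08 and 0.01. Without WT 2 alone the members' median was 0.0060, with the opposite sign, against 0.13 for all genes. All 6 genes of glutathione synthesis and recycling had lower means in the knockout libraries, with differences from -0.51 for *Gclc* to -0.01 for *Gss* and a group median of -0.36. *Gclc* stood at -0.11 without WT 3 and at -0.077 without KO 5, *Slc7a11* turned to 0.46 without WT 2, and the group median was -0.20 without WT 3 and -0.10 without both WT 2 and WT 3. The 4 thioredoxin genes had a median difference of 0.047, which turned to -0.065 under median-of-ratios scaling and to -0.024 without KO 5, so no direction is given for them.

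**Figure D2:**
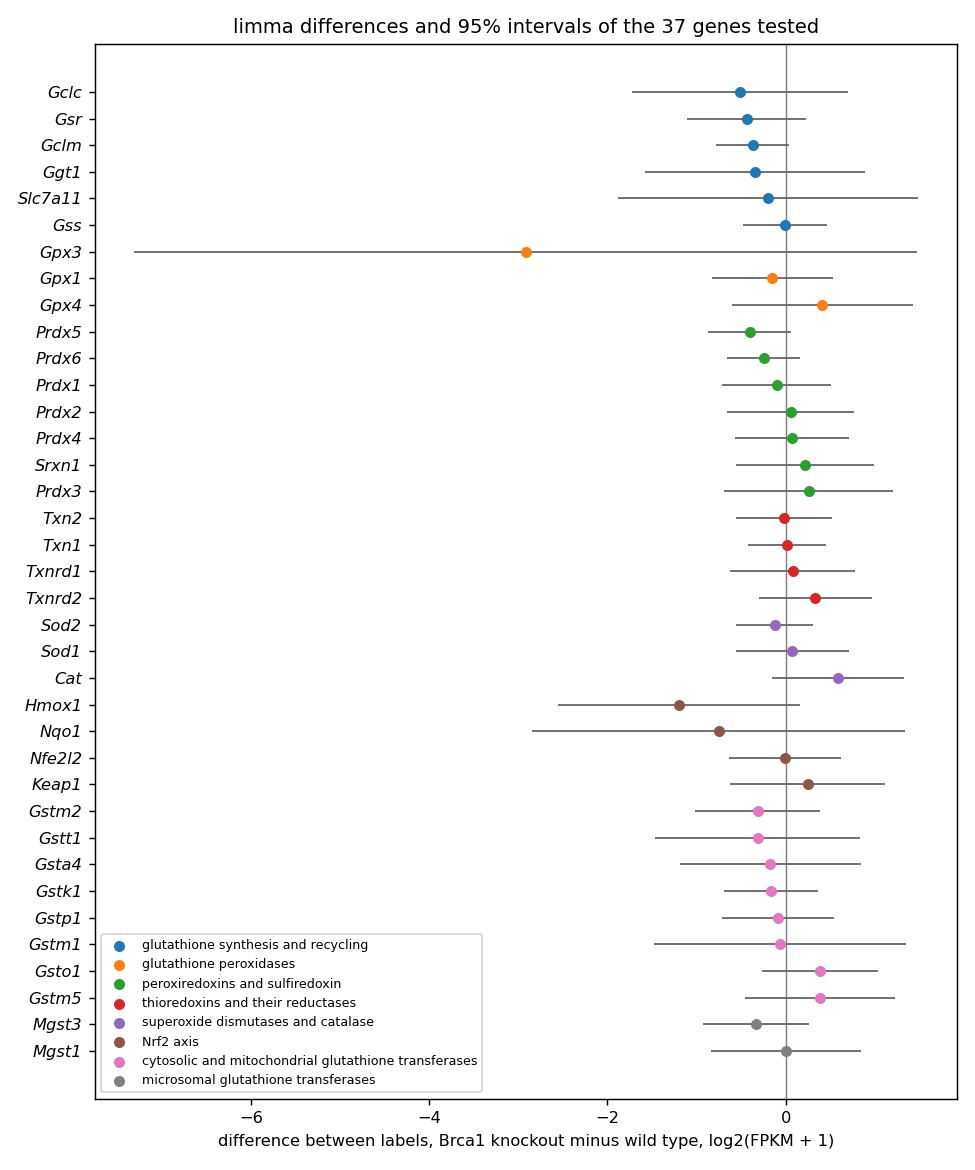
Difference between the labels for the 37 members tested (point, *Brca1* knockout minus wild type on the log2(FPKM + 1) scale, from limma over all genes) with its 95% confidence interval (line), coloured and ordered by role. Each interval includes 0, and that of *Gpx3* runs from -7.31 to 1.47.

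Labels that do not overlap were found for 6 of the 37 members. Every knockout library was below every wild type library for 5 members (13.5%), *Gclm*, *Gpx3*, *Prdx5*, *Prdx6* and *Hmox1*, against 5.77% of all genes. Every knockout library was above every wild type library for *Cat* alone (2.7%), against 17.5% of all genes. *Gpx7* and *Sod3*, under the minimum, were also lower in both knockout libraries. In limma the difference of *Gclm* was -0.37 ± 0.16 (SE, 95% interval -0.78 to 0.04), the smallest unadjusted p of all members (0.0677). That of *Hmox1* was -1.20 ± 0.54 (SE, interval -2.55 to 0.16) and moved to -0.71 without WT 2 and to -0.52 without both WT 2 and WT 3.

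*Cat* differed by 0.59 ± 0.29 (SE, interval -0.15 to 1.32), and by 0.34 without WT 3 and 0.22 without both WT 2 and WT 3. *Prdx5* differed by -0.40 ± 0.19 (SE, interval -0.87 to 0.06) and *Prdx6* by -0.25 ± 0.16 (SE, interval -0.66 to 0.17). Without WT 3 these differences were -0.32 and -0.20, and without both WT 2 and WT 3 they were -0.24 and -0.20. *Gpx3* had the widest interval, with a difference of -2.92 ± 1.75 (SE), and stood at -1.12 without WT 3. For *Nqo1* the difference of -0.75 ± 0.83 (SE) became 0.08 without WT 3, and for *Slc7a11* that of -0.20 ± 0.67 (SE) became 0.46 without WT 2. *Keap1* and *Prdx3* turned from 0.25 and 0.26 to -0.06 and -0.09 without WT 3. *Gstp1* turned from -0.09 to 0.11 without WT 1. The direction of these 5 genes thus rested on 1 library each.

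Some marker lists also differed between the labels. The 10 proliferation genes summed to 4.96 to 91.5 FPKM in the wild type libraries and to 135 and 189 FPKM in the knockout libraries, and the 9 mature luminal markers to 35.5 to 667 FPKM and to 27.9 and 32.3 FPKM. Neither sum overlapped between the labels. The 7 red blood cell markers did not overlap either, at 4.96 to 27.8 FPKM in the wild type libraries and 2.46 and 2.34 FPKM in KO 4 and KO 5. Sums of the 5 endothelial and 5 adipocyte markers were likewise lower in both knockout libraries, the adipocyte sums at 0.218 FPKM or less. Among single genes, 17.5% of all genes tested were higher and 5.77% lower in every knockout library than in every wild type library. The 8 macrophage markers summed to 5.13 to 217 FPKM in the wild type libraries and to 3.64 and 6.96 FPKM in the knockout libraries, with overlap. The part of these lists in the differences of the members was not tested.

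The libraries were also compared singly. On the log2 scale 5 of the 37 members (13.5%) had 1 library far from the other 4 by Dixon's ratio above 0.71, against 13% of all genes, so the share is near the background. *Gpx3* and *Nqo1* were high in WT 3, *Prdx3* and *Keap1* low in WT 3, and *Gstp1* high in WT 1. WT 3 was the highest library for 11 members (29.7%, against 18.5% of all genes) and the lowest for 17 (45.9%, against 51.9%). The 11 members highest in WT 3 were *Gclc*, *Gsr*, *Ggt1*, *Gpx3*, *Prdx5*, *Prdx6*, *Nqo1*, *Gstm1*, *Gstm2*, *Gstt1* and *Gstk1*, of which 3 belong to glutathione synthesis and recycling and 4 to the soluble transferases. Among the 17 members lowest there were 5 of the 7 peroxiredoxins and sulfiredoxin and 3 of the 4 thioredoxin genes.

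WT 2 was the highest library for 15 members (40.5%), against 16% of all genes. The 15 were *Gclm*, *Gss*, *Slc7a11*, *Gpx1*, *Prdx1*, *Prdx2*, *Prdx4*, *Txn1*, *Txn2*, *Txnrd1*, *Sod2*, *Hmox1*, *Nfe2l2*, *Mgst1* and *Mgst3*. Most of these margins were small, from 1.00 times the next library for *Sod2* to 1.21 times for *Prdx2*, with *Slc7a11* and *Hmox1* as the exceptions. By the log2 gap between WT 2 and the next library, *Slc7a11* was number 84 and *Hmox1* number 94 of 10583 protein-coding genes. The 8 macrophage and 8 leukocyte markers, which summed to 217 and 324 FPKM in WT 2 against at most 25.4 and 71.6 FPKM elsewhere, moved with this library. So did 9 basal markers, at 141 FPKM against 13.9 to 75.4 FPKM elsewhere (7 of 9 highest in WT 2), and 7 red blood cell markers, at 27.8 FPKM against 2.34 to 8.58 FPKM (5 of 7 highest there). The 8 fibroblast markers also had their highest sum in WT 2, at 112 FPKM. They stood at 88.9 FPKM in WT 3 and at most 12.9 FPKM elsewhere. The sums of 7 milk genes (91288 FPKM against at most 85968 FPKM elsewhere) and 6 luminal progenitor markers (720 against at most 637 FPKM) peaked in WT 2 too. The part of these lists in the levels of *Hmox1* and *Slc7a11* was not tested.

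**Figure D3:**
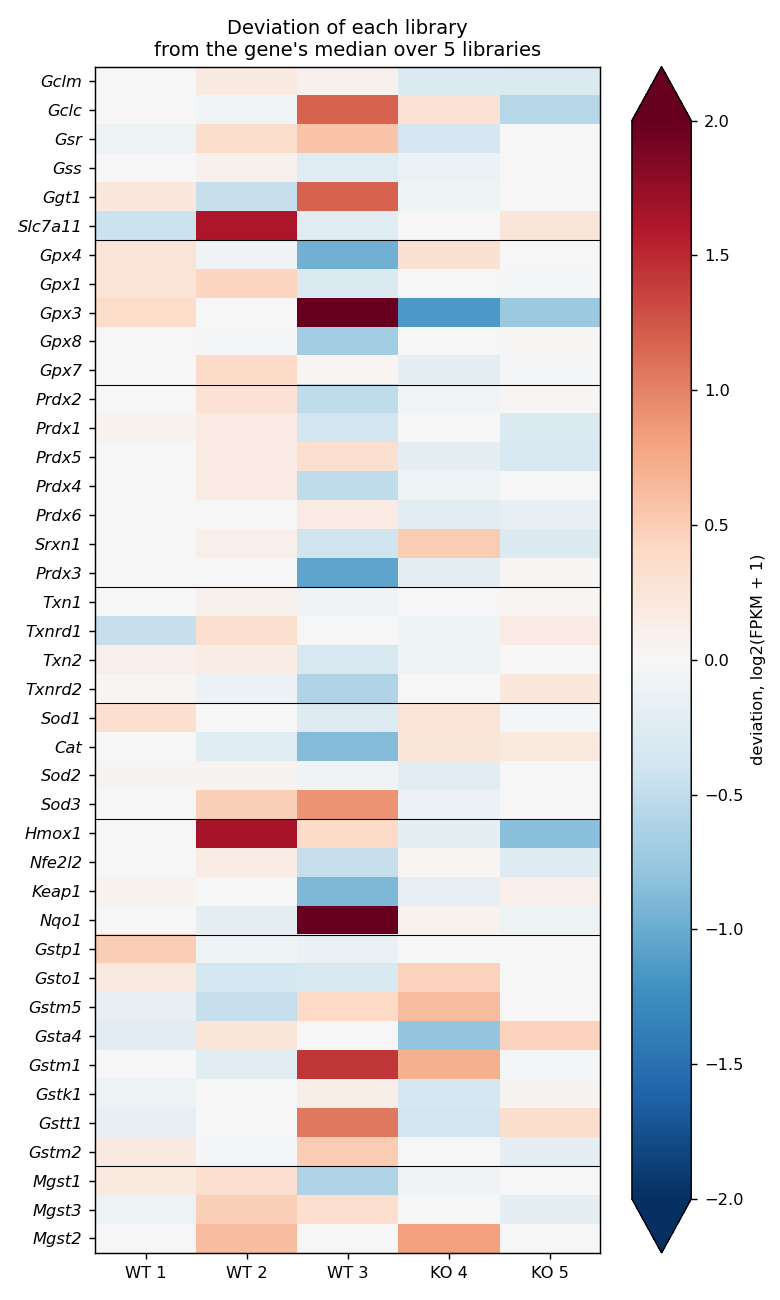
Deviation of each library from the median of the 5 libraries, on the log2(FPKM + 1) scale, for the 41 members ordered by role as in the plot of levels (red higher, blue lower, colours ending at 2 and -2). The WT 3 column holds the deepest red (*Gpx3*, *Nqo1*) and most of the blue (*Gpx4*, *Prdx3*, *Cat*, *Keap1*), and the WT 2 column is red for *Slc7a11* and *Hmox1*.

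**Figure D4:**
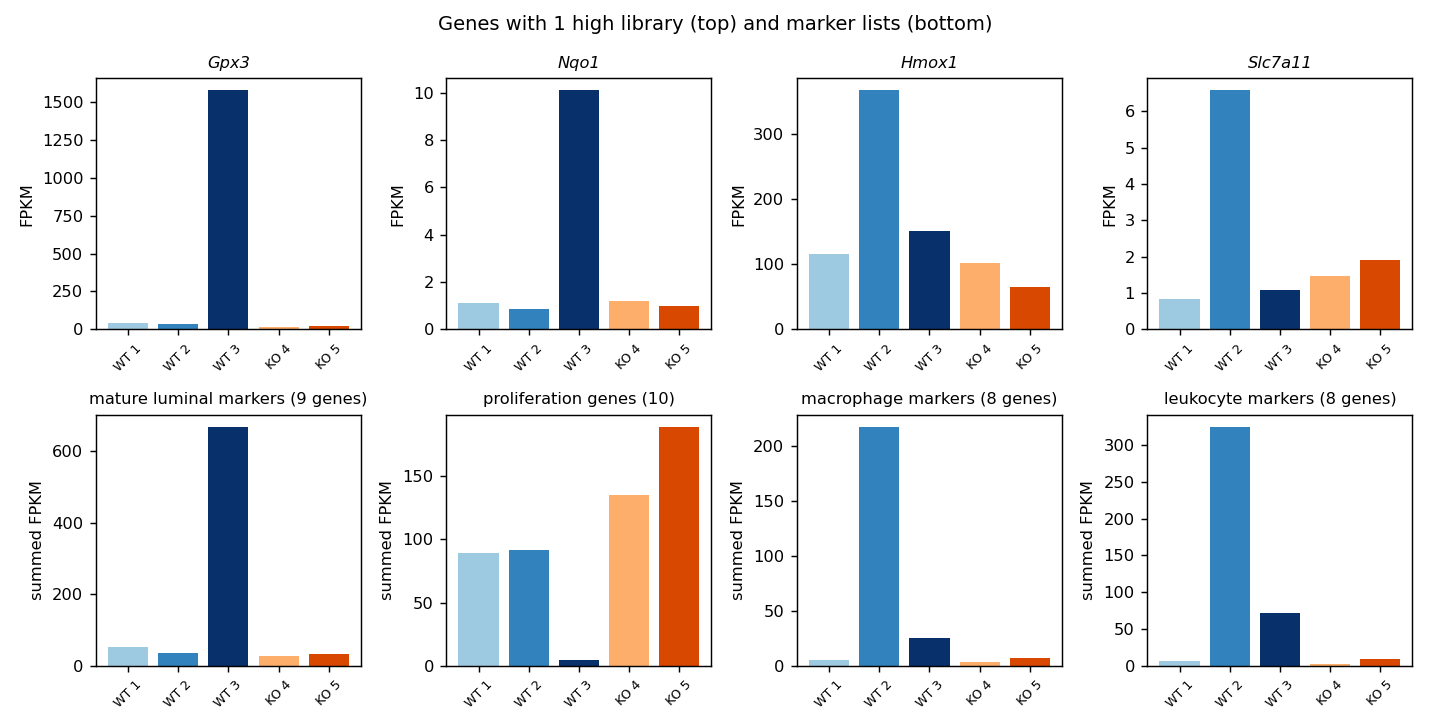
FPKM of *Gpx3*, *Nqo1*, *Hmox1* and *Slc7a11* in each library (top) and summed FPKM of 4 marker lists (bottom), each bar 1 library on an axis that starts at 0. *Gpx3* and *Nqo1* share their high library, WT 3, with the mature luminal markers (667 FPKM), and *Hmox1* and *Slc7a11* share theirs, WT 2, with the macrophage (217 FPKM) and leukocyte markers (324 FPKM). Other marker lists, not drawn, also had their highest sum in WT 2 or WT 3.

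A further 68 genes of the same pathways, listed for their function, were all present in the table, and 56 passed the minimum of 1 FPKM. None was called by limma in either direction (smallest adjusted p 0.924), and 3 of 56 had an unadjusted p under 0.05, against 3.24% of all genes. All 3 had higher means in the knockout libraries, where 34.5% of all genes tested had lower ones. These were *Msra*, which repairs oxidised methionine (difference 0.63), *Gstm7*, a mu class transferase (0.74), and *Bach1*, a repressor that competes for antioxidant response elements (0.46). Of the 56 genes, 29 were higher and 27 lower in the knockout libraries. The most abundant were *Fth1*, the heavy chain of ferritin, at 4604, 6800.3 and 3240.3 FPKM in WT 1, WT 2 and WT 3 and 3319 and 3478 FPKM in KO 4 and KO 5, and the metallothioneins *Mt1* (1896 to 3084 FPKM) and *Mt2* (1879.9 to 3923 FPKM).

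A high single library was seen for some of these genes. *Ggt5*, *Chac1* and *Msrb1* passed the Dixon limit of 0.71 with a high library, and *Nxn*, *Idh1* and *Chac2* passed it with WT 3 low. Of all genes tested, 13% passed this limit. *Alox5ap* and *Txnip* did not. *Msrb1* stood at 78.2 FPKM in WT 2 against at most 53.9 FPKM elsewhere. *Ggt5*, which acts on glutathione conjugates outside the cell, stood at 1.14, 1.87 and 13.3 FPKM in WT 1, WT 2 and WT 3 and at 1.25 and 1.93 FPKM in KO 4 and KO 5, the same high library as *Ggt1*. *Chac1*, which breaks down glutathione inside the cell, stood at 5.47, 19.4 and 4.02 FPKM in the wild type libraries and at 6.30 and 5.42 FPKM in the knockout libraries, the same high library as *Slc7a11*. *Alox5ap*, a leukotriene pathway gene expressed by leukocytes, was at 24.5 FPKM in WT 2 and between 0.201 and 4.12 FPKM elsewhere. *Txnip*, which binds and inhibits thioredoxin, ranged from 420.2 FPKM in WT 3 to 1041 FPKM in KO 4, a wider range than that of *Txn1*.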

How the data were processed

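The authors prepared libraries from sorted luminal cells with the NEBNext Ultra RNA kit and sequenced paired ends on a pair of Illumina HiSeq platforms. The deposited table holds FPKM, made by the authors by aligning reads to mm10 with TopHat and quantifying with Cufflinks 2.2.1. The submitters' processing notes also name Trimmomatic 0.35 and TopHat2 2.0.13. The annotation is not given in the sources used here. The table has 24346 rows, of which 27 (25 distinct names) had a gene name turned into a date and were left out. No 2 libraries were identical. Low FPKM values lay near whole multiples of a step in only 49.0% to 62.3% of cases (tolerance 0.15, 30% by spacing alone), so counts were not recovered and depth is unknown.

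Members were taken by name. The members and gene lists were chosen with earlier results of these data known. The genes named are all members, those of the pathway and marker lists, and *Brca1*. Values in every library are given for the members with the highest mean in each role, those whose labels do not overlap, those far from the rest in 1 library and those of widest range. FPKM were analysed as log2(FPKM + 1), where a fold change of a low gene is understated. limma 3.58.1 (lmFit, eBayes with a trend, R 4.3.3) compared the labels over the 11481 genes whose mean reached 1 FPKM, with Benjamini-Hochberg adjustment and a threshold of 0.05. The fitting code was run on simulated libraries of the same layout, all with the same spread. That does not show how it handles libraries that stand apart, such as WT 2 and WT 3. Alternatives were a pseudocount of 0.1, no minimum, a minimum of 5 FPKM, median-of-ratios and quantile scaling, library weights, no trend, each replicate left out, and, chosen after seeing the data, both replicates 2 and 3 left out. Gene positions are from GENCODE M21 (GRCm38, which is mm10) and promoter windows from RefSeq (GRCm38.p6). Exons of 7 members overlap another annotated gene, and the sources do not state strand-specific counting. The share of exon bases ran from 4.0% (*Txnrd2*) to 19.1% (*Prdx5*), with 15.4% for *Gss* and 13.9% for *Gstm5*. Summaries were made in Python 3.11.15 with pandas 2.3.3, numpy 2.4.6 and scipy 1.17.1, and plots with matplotlib 3.10.9.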

Additional observations from a re-analysis of the deposited data

Results flagged for a closer look

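With all 5 libraries taken as 1 group, as the study took them, the values of 6 members and of 1 role group had a single library whose gap to the nearest other exceeded the critical Dixon ratio of 0.71 on the log2 scale. Chance alone passes this limit in about 5% of groups, and 13% of all genes tested passed it here. In WT 3, *Gpx3* was high at 1579 FPKM and *Nqo1* at 10.1 FPKM. In the same library *Prdx3* was low at 24.7 FPKM, *Keap1* at 7.69 FPKM and *Gpx8*, under the minimum for testing, at 0.299 FPKM. The median of the Nrf2 axis (*Nfe2l2*, *Keap1*, *Hmox1* and *Nqo1*) was lowest in WT 3 as well, at 3.97 against 4.39 to 4.55 on the log2 scale. Yet *Nqo1* was highest there, and *Hmox1* (152 FPKM) was exceeded only in WT 2 (368 FPKM). The middle genes were *Nfe2l2* and *Nqo1* in WT 3 but *Nfe2l2* and *Keap1* elsewhere, so these medians compare different genes. The group also mixes an inhibitor with target genes, so its median does not measure Nrf2 activity. In WT 1, *Gstp1* was high at 80.1 FPKM.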

How the results depend on the processing

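No member and no further pathway gene was called by limma under any of the 13 alternatives, with adjusted p of 0.113 or more for members. Over all genes the count of 0 rose to 1 with library weights and to 3 without both replicates 2 and 3, and ran from 0 to 14 with 1 replicate left out. Where replicate 4 or 5 is left out, the lone knockout library is assumed to vary like the wild type libraries. Of the 37 members, 14 kept the sign of their difference in every alternative run. The sign changed for 6 under median-of-ratios scaling, 11 with library weights, 11 without replicate 3 and 12 without both replicates 2 and 3. With library weights, largest for replicate 2 (5.59) and smallest for replicate 3 (0.148), the differences of *Prdx3*, *Nqo1*, *Keap1* and *Gstp1* became -0.068, 0.10, -0.012 and 0.044. Without both replicates 2 and 3, *Prdx3* was at -0.087, *Keap1* at -0.099 and *Slc7a11* at 0.55. With 1 replicate left out, *Prdx3* ranged from -0.090 to 0.44, *Nqo1* from -1.21 to 0.081, *Keap1* from -0.063 to 0.42, *Gstp1* from -0.20 to 0.11 and *Slc7a11* from -0.57 to 0.46. The cause was not tested. The median difference over the members ranged from -0.20 under median-of-ratios scaling to 0.0060 without replicate 2, against 0.01 and 0.13 for all genes. No paired analysis was possible because the labels share no replicate numbers. Depth is unknown, and 2 libraries against 3 limit the precision.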
